A study of Mus musculus with 6 samples.

Results

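The array holds 16251 probes for intergenic long noncoding RNA (lincRNA), 29.2% of its 55681 non-control probes, and they are described here by detection, level, response to Foxo3 siRNA, strand and neighbouring gene. They were taken from the array's own annotation: a probe was a member when its gene name, systematic name or description contained the word lincRNA, or when its gene name was a chromosome followed by coordinates. No measured value entered that choice. The members tile 3555 genomic intervals of mouse build mm9, whose widths run from 62 to 7128487 bases with a median of 7328. The forward strand alone is probed in 1257 intervals, the reverse strand alone in 1231 and both strands in 1067, with 8199 forward and 8052 reverse probes in all. Each strand of an interval carries 1 to 10 probes (median 3), each of 60 bases, so probes of 1 interval share a target and are not replicates of each other. Of the members, 57 carry 1 of 12 established names, such as NEAT2 or TUG1, 118 have no usable position, and the rest are known only by coordinates. Whether an interval overlaps an exon, intron or UTR in a current annotation was not analysed here.

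The RNA came from G1E-ER-GATA-1 cells, a mouse erythroid precursor line without its own GATA-1 that carries GATA-1 fused to the ligand-binding part of the estrogen receptor. All 6 samples had this background and all received estradiol, which switches the fusion protein on. The siRNA, given by nucleofection at 0 h and again at 24 h, was directed against Foxo3 in 3 samples and was nontargeting in the other 3. Estradiol treatment began at 24 h, and the cells were harvested for total RNA at 48 h. Labelling used Cy3 and 0.1 µg of input RNA per sample, with 1 sample per 1-colour Agilent array. Nothing in the labels places the replicates in separate cultures, so p-values measure the spread between these samples, which may be technical. This is 1 cell line in culture, and in such bulk RNA fewer cells of a kind and less RNA per cell cannot be told apart.

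Long noncoding RNAs are transcripts without a translated reading frame. Some act near their own gene, as Xist does when it silences the X chromosome; some build nuclear bodies, as Neat1 does in paraspeckles; others, such as the transcript that carries the miR-17 to miR-92 cluster, serve as precursors of small RNAs. Many lincRNA intervals were first mapped from chromatin marks, without a defined transcript end or strand, which is why both strands of an interval are often probed. A 60-base probe reports whatever labelled RNA binds it, and a processed copy of a coding gene inside an interval can therefore report the coding mRNA.

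The probe sequences on which the results turn are shown 5′ to 3′ as on the array. A_30_P01028956 had the largest rise, and A_30_P01029276 the fall with the smallest adjusted p. Probe A_30_P01022125 resembles the mRNA of Mif, and its capitals mark bases that differ from, or lie outside, the ungapped alignment to the Mif probe A_55_P1970806, which has 49 identical bases of 57. A_30_P01029746 has the same 60 bases as the probe for the gene Mir17hg. A_30_P01029956 and A_30_P01032551 read opposite strands of the same 60 bases. A_30_P01031754 and A_30_P01019221 lie near the 5′ and 3′ end of Malat1, and A_30_P01019549 and A_30_P01023742 likewise lie nearer the 5′ and the 3′ end of the Dleu2 interval. A_30_P01027010 lies in the lincP21 interval. A_30_P01031448 is among the brightest members and 83.3% of its bases are G or C.
A_30_P01028956: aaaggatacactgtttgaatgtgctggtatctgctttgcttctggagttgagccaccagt
A_30_P01029276: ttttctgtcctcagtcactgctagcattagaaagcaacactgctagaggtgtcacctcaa
A_30_P01022125: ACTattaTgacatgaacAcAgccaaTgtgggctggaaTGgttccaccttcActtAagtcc
A_30_P01029746: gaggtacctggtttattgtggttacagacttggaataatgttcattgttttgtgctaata
A_30_P01029956: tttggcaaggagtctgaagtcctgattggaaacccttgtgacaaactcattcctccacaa
A_30_P01032551: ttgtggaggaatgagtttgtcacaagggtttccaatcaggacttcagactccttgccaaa
A_30_P01031754: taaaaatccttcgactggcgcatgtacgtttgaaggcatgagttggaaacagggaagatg
A_30_P01019221: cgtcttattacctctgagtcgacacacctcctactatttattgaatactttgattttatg
A_30_P01019549: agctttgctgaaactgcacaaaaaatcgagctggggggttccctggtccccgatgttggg
A_30_P01023742: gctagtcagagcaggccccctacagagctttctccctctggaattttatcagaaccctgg
A_30_P01027010: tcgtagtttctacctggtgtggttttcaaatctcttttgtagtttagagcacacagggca
A_30_P01031448: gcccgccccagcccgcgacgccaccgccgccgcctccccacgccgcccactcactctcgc

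Foxo3, the targeted gene, encodes a forkhead transcription factor. Its probe on the RefSeq mRNA (A_55_P2150896) read −0.46, −1.29 and −1.89 in the Foxo3 siRNA arrays and 1.23, 1.28 and 1.12 in the nontargeting arrays on a scaled log2 axis, where 0 is the 75th percentile of the array. It fell by 2.42 on the log2 scale (SE 0.340, limma adjusted p = 0.00532), and the third Foxo3 siRNA array was not well above background. The other Foxo3 probe, on a cDNA clone (A_55_P2129309), gave 0.25 (limma adjusted p = 0.258), so the fall rests on 1 probe. Of 11 erythroid marker genes with a probe, 10 were well above background on all 6 arrays, Gata1, Klf1 and Hba-a1 among them. None of 3 B cell and 0 of 4 fibroblast markers reached that level, against 2 of 4 T cell, 2 of 4 myeloid and 3 of 4 megakaryocyte markers.

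Fewer lincRNA probes than other probes gave a signal. Feature Extraction marks a spot as well above background when its signal clears the local background by a set margin, and 2671 members (16.4%) were so marked on all 6 arrays, against 15169 of the 39430 other probes (38.5%). On no array at all were 5842 members (35.9%) and 11676 other probes (29.6%). These counts depend on 1 array. Foxo3 siRNA replicate 3 had 2997 members above background (18.4%), Foxo3 siRNA replicates 1 and 2 had 6857 (42.2%) and 9361 (57.6%), and the nontargeting replicates had 7911, 7245 and 7303 (48.7%, 44.6% and 44.9%). Replicate 3 thus stood apart at the low end and replicate 2 at the high end of the same group. A surrogate value replaced the signal of 61.5% of members on that array, against 17.1% to 32.5% on the others. Its lowest signal still counted as above background was −1.70 on the scaled log2 axis, against −4.85 to −3.78 elsewhere. Over the other 5 arrays 5788 members (35.6%) and 19957 other probes (50.6%) were above background throughout, and 3117 members (19.2%) missed only on that array. No member was saturated.

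**Figure D1:**
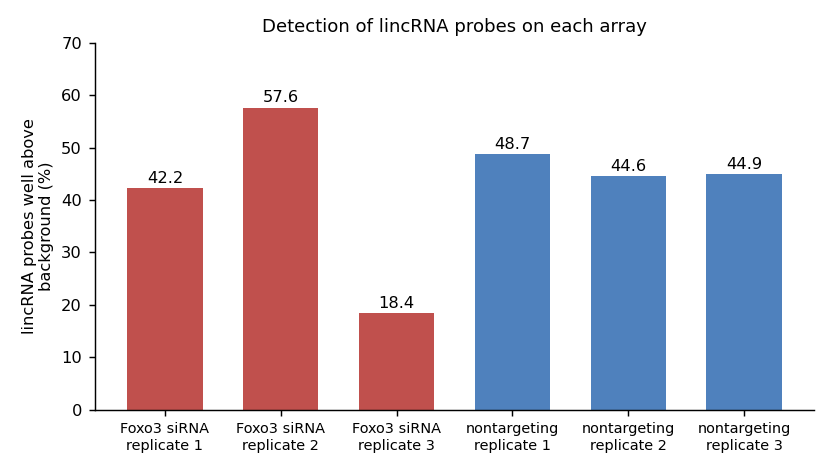
Share of the 16251 lincRNA probes marked well above background on each array, in percent; bars are single arrays, red for Foxo3 siRNA and blue for nontargeting siRNA. The third Foxo3 siRNA array stands at 18.4%, against 42.2% to 57.6% on the other arrays.

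Detection went with base composition more than with strand or place in the interval. Among members with 15.0% to 36.7% G or C, 11.8% were above background on all 6 arrays, and the next classes gave 14.1% (up to 43.3% G or C) and 13.3% (45.0%). The share was 26.4% from 46.7% G or C and 27.7% from 51.7%. Forward and reverse probes gave 16.2% and 16.7%. Along the interval 445 of 2226 probes in the fifth at the 5′ end were above background on all 6 arrays, and the share was 15.7% in the fifth at the 3′ end, where 6360 of the positioned probes lie. The hexamer AATAAA, the usual polyadenylation signal, was searched on the probe strand and stood in 637 members (3.92%) and in 12.6% of other probes. Members with it were above background on all 6 arrays in 17.4% of cases and members without it in 16.4%.

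Members that gave a signal everywhere were called in both directions, and which direction had more calls depended on the setting. Of the 2671 above background on all 6 arrays, limma called 208 higher (7.79%) and 403 lower (15.1%) at an adjusted p under 0.05. Over all 17840 probes with such signal the shares were 17.3% higher and 12.6% lower. The share of members called lower was thus near that of the array as a whole, and the share called higher was below it. The median log2 fold change was −0.23 over these members, −0.00 over all such probes and 0.04 over the others. Among the called members, 77 rose and 60 fell by 2-fold or more. In 379 of these members every Foxo3 siRNA value lay above every nontargeting value, and in 924 below, or 48.8% in sum, where all such probes gave 30.2% above and 25.7% below. Called members came from 114 strands of intervals for the rises and 280 for the falls. With arrays scaled to their medians in place of their 75th percentiles, the members' median was 0.08 and that of the other probes 0.35, so the sign of small changes depends on the scaling, and these members gave 292 higher and 63 lower calls. All 3 nontargeting arrays and Foxo3 siRNA replicate 1 lie in row 1 of the slide and Foxo3 siRNA replicates 2 and 3 in row 2. With slide row as a block the same members gave 71 higher and 32 lower calls, within row 1 alone 18 and 6, and without a filter on dim probes 23 and 9. Leaving out Foxo3 siRNA replicate 2 or 3 gave 135 and 138 or 136 and 146, and leaving out nontargeting replicate 1, 2 or 3 gave 135 and 167, 92 and 98, or 144 and 270.

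A further 3601 members passed the filter on dim signals through 1 group only, which leaves 9979 of the 16251 with no test. Through the nontargeting arrays alone came 3536, of which 3117 missed just the third Foxo3 siRNA array, and through the Foxo3 siRNA arrays alone came 65, of which 27 had an outlier spot on a nontargeting array. Since such members were let in by the group in which they were high, their 38 higher and 525 lower calls are given for completeness and are not read. With them, 246 of 6272 tested members were called higher (3.92%) and 928 lower (14.8%), against 12.2% and 13.4% of all 26970 tested probes. The share of higher calls among called members was 21.0%, and it was 54.5% with median scaling, 32.9% with quantile normalization and 33.8% with slide row as a block.

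**Figure D2:**
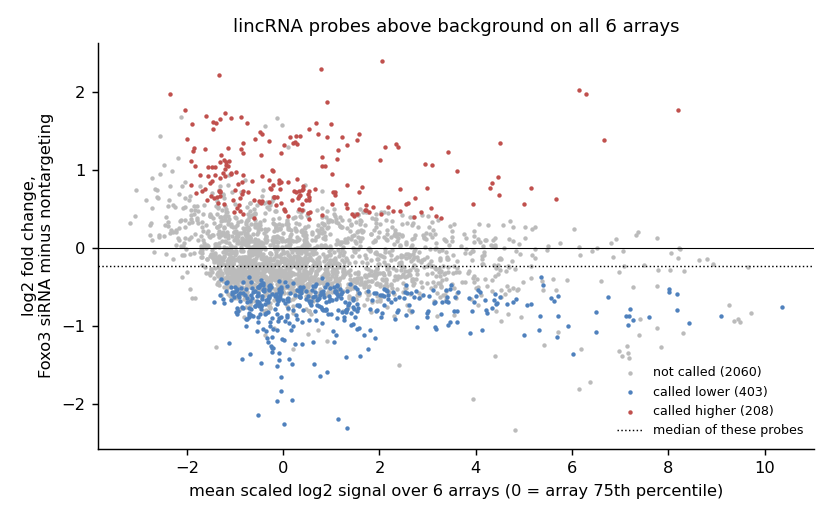
Log2 fold change (Foxo3 siRNA minus nontargeting siRNA) against mean scaled log2 signal over 6 arrays for the 2671 lincRNA probes above background on all of them; each point is 1 probe. Red marks the 208 called higher, blue the 403 called lower, and the dotted line the median of −0.23, below 0, and it was 0.08 with arrays scaled to their medians.

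The fold change of members also went with base composition. Its median was 0.01 in the class with the least G and C (397 members), then −0.11, −0.24, −0.26 and −0.35 in the class with the most (814 members). Among other probes the matching medians were 0.08, 0.05, 0.03, −0.05 and −0.03. In the members richest in G and C, nontargeting replicate 1 lay a median of 0.36 above the probe's mean over all arrays, replicates 2 and 3 lay at 0.12 and −0.01, and the Foxo3 siRNA replicates lay at −0.10, −0.25 and −0.18. Without nontargeting replicate 1 the medians of the 5 classes were −0.03, −0.07, −0.18, −0.19 and −0.24. The part of that array in the gradient was otherwise not tested. Place along the interval showed no such gradient, with medians of −0.22 in the fifth at the 5′ end and −0.22 in the fifth at the 3′ end.

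The largest rise was that of A_30_P01028956 in the interval chr1:193815525-193825775, forward strand. The Foxo3 siRNA arrays read 3.13, 3.46 and 3.20 on the scaled log2 axis and the nontargeting arrays 0.69, 0.995 and 0.91. The groups lay far apart, with a log2 fold change of 2.40 (SE 0.143, limma adjusted p = 0.000711), or 5.27-fold, and the call was kept in 15 of 15 alternatives. On the opposite strand and 4170 bases away is a probe for Traf5, an adaptor of TNF receptor signalling, which fell by 0.55 (limma adjusted p = 0.042).

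Next came a pair of probes in chr15:83181291-83197750, reverse strand. A_30_P01020716 read 2.09, 1.96 and 1.73 with Foxo3 siRNA against −0.04, −0.53 and −0.53 with nontargeting siRNA, a rise of 2.30 (limma adjusted p = 0.00111). A_30_P01031758 rose by 2.22 (limma adjusted p = 0.00729), with the widest nontargeting spread of the 10 largest rises, −3.19 to −1.87. Neither probe's groups overlapped. The gene probe nearest the first, 98 bases off on the same strand, belongs to 1700001L05Rik and rose by 2.19 (limma adjusted p = 0.000797), and another probe of that gene (A_55_P2404484) rose by 2.35 (limma adjusted p = 0.000909).

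A probe that resembles Mif rose, as did the probes for Mif. Mif encodes macrophage migration inhibitory factor, a secreted cytokine. A_30_P01022125 in chr19:56820850-56837925, reverse strand, read 7.41, 6.94 and 7.15 with Foxo3 siRNA against 5.52, 5.31 and 4.57 with nontargeting siRNA (log2 fold change 2.03, limma adjusted p = 0.00443). Its neighbour A_30_P01027445, with 50 of 56 aligned bases like a second Mif probe, rose by 1.97 (limma adjusted p = 0.00466). A_30_P01021243 in chr17:48068261-48087905, forward strand, with 47 of 50 aligned bases like yet another, read 9.39, 8.87 and 8.99 against 7.58, 7.48 and 6.88 and rose by 1.77 (limma adjusted p = 0.00437). The probes for Mif itself, on chromosome 10, rose by 1.63 to 1.88, and as with these 3 members nontargeting replicate 3 was their lowest array. Which transcript the members bound cannot be told apart from the signal.

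Likeness of that kind was looked for throughout. At least 40 identical bases on the same strand as a probe outside the set were found for 229 members, and 79 of them were identical over all 60 bases. Above background on all 6 arrays were 87 such members, of which 21 were called higher (24.1%) and 6 lower (6.9%). Over all probes with such signal the shares were 17.3% and 12.6%. The look-alike had the same call for 23 of these 27 and the opposite call for 0. Across the 83 members whose look-alike was also tested, Pearson's r between the fold changes was 0.949; the points share the 6 arrays and nearly their sequence, so this describes probes, not independent transcripts. The 2584 members without such likeness gave 187 higher (7.24%) and 397 lower (15.4%) calls with a median of −0.24. One further case is A_30_P01023554 in chr17:34018371-34019394, which shares 59 bases with a probe for Kifc1, a kinesin of the mitotic spindle. It rose by 1.59 (limma adjusted p = 0.000943) and the Kifc1 probe by 1.64 (limma adjusted p = 0.00141).

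Other rises lay near noncoding or predicted genes. A_30_P01030698 in chr11:16831925-16851121, reverse strand, read 1.81, 1.87 and 1.84 with Foxo3 siRNA against 0.19, −0.09 and −0.20 with nontargeting siRNA, a rise of 1.88 (limma adjusted p = 0.000931) with the smallest spread among Foxo3 siRNA arrays of the 10. It overlaps the probe for the noncoding gene Eldr, which rose by 0.76 (limma adjusted p = 0.00986), and A_30_P01026217, which shares 57 bases with that Eldr probe, rose by 1.67 (limma adjusted p = 0.00121). In chr1:107866276-107887102, reverse strand, A_30_P01024439 rose by 1.97 (limma adjusted p = 0.00558) and A_30_P01025660 by 1.77 (limma adjusted p = 0.00198). The Gm7160 probe 5615 bases away on the same strand read −1.74, −1.13 and −1.24 with Foxo3 siRNA against −3.36, −3.73 and −2.77. It was let in by the Foxo3 siRNA arrays alone, so its change is not read. A_30_P01031844 in chr8:26212577-26218527, reverse strand, rose by 1.73 (limma adjusted p = 0.00798), and the 5830408C22Rik probe 5793 bases away on the opposite strand rose by 1.71 (limma adjusted p = 0.0078).

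**Figure D3:**
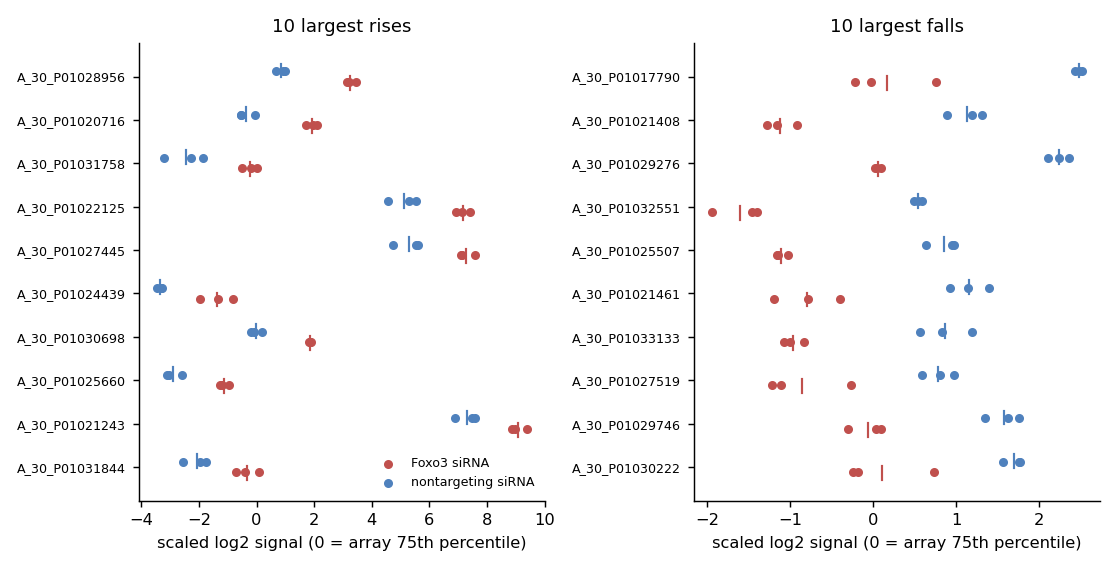
Scaled log2 signal (0 is the 75th percentile of the array) of the 10 lincRNA probes with the largest rises and the 10 with the largest falls among those called and above background on all 6 arrays, named by probe. Points are arrays, red for Foxo3 siRNA and blue for nontargeting siRNA, and short lines are group means (n = 3); the groups do not overlap in any of the 20, which the choice of probes required.

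Among the falls, the interval chr1:163508244-163586072 stood first. Its reverse-strand probe A_30_P01017790 read 0.76, −0.22 and −0.02 with Foxo3 siRNA against 2.52, 2.44 and 2.48 with nontargeting siRNA. It fell by 2.31 on the log2 scale (SE 0.252, limma adjusted p = 0.00267), with nontargeting arrays close together and Foxo3 siRNA replicate 1 the highest of its group. A_30_P01032551 in the same interval and strand fell by 2.14 (limma adjusted p = 0.00106). Each kept its call in 15 of 15 alternatives. No gene-named probe lies near: the closest of any gene, that of Tnfsf18, is 92261 bases from the first probe.

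The fall with the smallest adjusted p was that of A_30_P01029276 in chr8:106037800-106070025, forward strand. It read 0.10, 0.02 and 0.05 with Foxo3 siRNA against 2.11, 2.37 and 2.24 with nontargeting siRNA, a fall of 2.18 (SE 0.113, limma adjusted p = 0.000493). A_30_P01021408 in chr13:114514159-114514765, reverse strand, read −1.27, −0.92 and −1.16 against 0.89, 1.32 and 1.19 and fell by 2.25 (limma adjusted p = 0.00094). Both had groups far apart and kept their calls in 15 of 15 alternatives. A_30_P01025507 in chr2:157236070-157249445, forward strand, fell by 1.96 (limma adjusted p = 0.00086), while the Manbal probe 19370 bases away on the same strand gave 0.26 (limma adjusted p = 0.175). A_30_P01021461 in chr2:119697845-119719245, forward strand, fell by 1.95 (limma adjusted p = 0.0033). The nearest tested gene probe, 61508 bases away on the same strand, is that of the receptor kinase Tyro3. That probe read −3.84, −3.28 and −3.93 with Foxo3 siRNA against −3.01, −3.14 and −2.76 with nontargeting siRNA. It was let in by the nontargeting arrays alone, so its change is not read.

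The interval chr14:115443612-115445950 overlaps the probe of Mir17hg, the host transcript of the miR-17 to miR-92 cluster. On the forward strand A_30_P01033133 read −0.83, −0.999 and −1.07 with Foxo3 siRNA against 0.56, 0.83 and 1.19 with nontargeting siRNA, a fall of 1.83 (limma adjusted p = 0.00203). A_30_P01031307 fell by 1.51 (limma adjusted p = 0.00933) and A_30_P01029746 by 1.63 (limma adjusted p = 0.00219). The gene's own probe, with the same 60 bases as the last, fell by 1.68 (limma adjusted p = 0.00344), which gives the agreement of the same sequence spotted under 2 names. None of the 3 reverse-strand probes of the interval was tested, as no group had them above background on all arrays.

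On the forward strand of chr17:29571806-29603008 lie 3 adjoining probes on the side of Pim1, a serine/threonine kinase of cytokine signalling. A_30_P01027519 read −0.26, −1.22 and −1.11 with Foxo3 siRNA against 0.59, 0.81 and 0.97 with nontargeting siRNA, a fall of 1.65 (limma adjusted p = 0.00854). A_30_P01030222 fell by 1.59 (limma adjusted p = 0.00934) and A_30_P01024059 by 1.49 (limma adjusted p = 0.00838). In all 3, Foxo3 siRNA replicate 1 was well above replicates 2 and 3, and with slide row as a block, which rests on that array, they gave −1.05 to −0.93 and kept their calls. Without a filter on dim probes 0 of the 3 were called. Pim1 itself, 27732 bases beyond the nearest of them on the same strand, fell by 0.66 (limma adjusted p = 0.0127).

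A few more members close to a gene probe were named for their small adjusted p. That p is not read for those let in by the nontargeting arrays alone. A_30_P01025929 in chr10:81069014-81083448, forward strand, read −3.40, −4.08 and −3.92 with Foxo3 siRNA against −0.74, −0.82 and −0.66 with nontargeting siRNA. Only 2 of its Foxo3 siRNA values were well above background, the last lies under the −1.70 at which that array could still mark a signal, and the nontargeting arrays let the probe in, so no fold is given. The nearest gene probe, 1083 bases away on the opposite strand, is that of the deacetylase Sirt6 and gave 0.19 (limma adjusted p = 0.244). A_30_P01022960 in chr15:82036791-82037660, reverse strand, was let in the same way, with −2.90, −2.62 and −3.06 against −0.95, −0.99 and −0.90, and Srebf2, the regulator of cholesterol synthesis probed 1968 bases away on the opposite strand, gave −0.12 (limma adjusted p = 0.474). A_30_P01029964 in chr10:117021051-117038683, forward strand, rose by 1.61 (limma adjusted p = 0.00107), whereas the probe of the pseudogene Kifc5c-ps only 17 bases away on the same strand gave −0.31 (limma adjusted p = 0.0838).

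Some members were above background on all arrays of 1 group and on none of the other, where a fold is only a bound. There were 8 such members higher and 15 lower, and each of the 10 bounds given here moved by more than 1.5-fold without Foxo3 siRNA replicate 3. The bound sets the mean of the bright group against the lowest signal that each dim array could still mark. Since such members were let in by the group in which they were bright, no p-value is given for them. A_30_P01031250 in chr2:94046243-94070067, forward strand, was at least 8.16-fold lower with Foxo3 siRNA and at least 15.6-fold lower without Foxo3 siRNA replicate 3. For A_30_P01028640 in chr12:20240893-20435318, reverse strand, these bounds were 3.79 and 7.26, and nontargeting replicate 1 was its highest array at 0.26, against −2.62 and −2.59. The next 3 falls had bounds of 1.88, 1.84 and 1.73. Among the rises the highest bound was that of A_30_P01018947 in chr15:92174226-92201201, forward strand, at least 2.49-fold with all arrays and 1.24-fold without replicate 3. Its Foxo3 siRNA values were −3.76, −3.43 and −0.58. The other 4 largest rises by bound, at 2.21 to 2.44, were not called.

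Levels of members above background on all 6 arrays ran from −3.17 to 10.36 on the scaled log2 axis, with a median of 0.15. The brightest member, A_30_P01031754, lies in Malat1, an abundant RNA of nuclear speckles. Of the next 4, A_30_P01031448, A_30_P01023523 and A_30_P01032016 are 83.3%, 88.3% and 78.3% G and C. They gave −0.84, −0.95 and −0.91 and were not called (limma adjusted p = 0.0592, 0.0745 and 0.0814). On each of them nontargeting replicate 1 was the highest array, at 10.73, 10.697 and 10.55, with replicates 2 and 3 between 9.52 and 9.89. The fifth, A_30_P01022075, gave −0.25 (limma adjusted p = 0.14) and 0.07 with median scaling.

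Malat1, which the array calls NEAT2, was read by 10 reverse-strand probes in chr19:5795689-5802671, and its parts did not give 1 value. This and the other loci below were picked for their names or after their values were seen. Probe A_30_P01031754, 482 bases from the 5′ end, read 10.25, 9.84 and 9.85 with Foxo3 siRNA against 10.81, 10.68 and 10.71 with nontargeting siRNA, a fall of 0.76 (limma adjusted p = 0.0144). The other probes near the 5′ end fell by 0.86 and 0.96, and the 3 in the middle by 0.88, 0.99 and 1.07. At the 3′ end, A_30_P01019221 read 4.35, 4.74 and 4.62 against 4.56, 4.89 and 5.02 and its groups overlapped. The 4 probes there gave −0.25 to −0.13 and none was called, and the Malat1 gene probe at that end gave −0.17 (limma adjusted p = 0.435).

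The difference along Malat1 can be taken within each array. The mean of the 6 probes in the 5′ and middle parts minus that of the 4 at the 3′ end was 3.82, 3.00 and 3.15 with Foxo3 siRNA (mean 3.32 ± 0.44, SD, n = 3) against 4.36, 3.87 and 3.87 with nontargeting siRNA (4.04 ± 0.28, SD, n = 3). The groups differ by −0.72 and lie apart by a small margin; since the split follows the probes called and not called, this describes them and was not tested. Of the 6 falls, 1 was called with median scaling and 1 with slide row as a block. Forward-strand probes in the interval gave −0.78 to −0.05 and 0 of 3 were called. NEAT1, the scaffold of paraspeckles, was read by 5 reverse-strand probes with fold changes of −0.30 to −0.22, 0 of them called, and by 11 forward-strand probes at −0.45 to −0.15, 1 of them called lower.

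**Figure D4:**
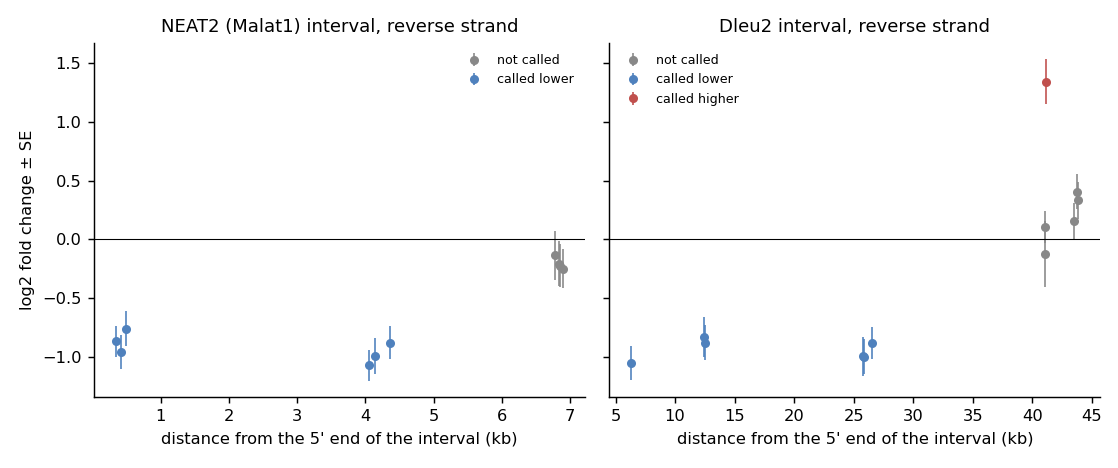
Log2 fold change (points) with SE (bars) of reverse-strand lincRNA probes by distance in kb from the 5′ end of the interval, for NEAT2 (Malat1, left) and the Dleu2 interval (right). Blue probes were called lower, red higher and grey not called; in both intervals the falls lie away from the 3′ end, where the values run from −0.25 to −0.13 for NEAT2 and up to 1.34 for Dleu2.

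The interval of Dleu2, a noncoding RNA that hosts miR-15a and miR-16-1, was the one with called probes of both directions. In chr14:62263564-62307496, reverse strand, A_30_P01019549 lies 6336 bases from the 5′ end and read −0.10, −0.45 and −0.55 with Foxo3 siRNA against 0.67, 0.65 and 0.72, a fall of 1.04 (limma adjusted p = 0.00511). A_30_P01023742 lies 41179 bases from that end and read 3.14, 2.97 and 2.93 against 1.92, 1.85 and 1.27, a rise of 1.34 (limma adjusted p = 0.0059). Neither overlapped between groups. Of 12 tested probes on this strand 6 fell, by 0.83 to 1.05, 1 rose and 5 were not called, and the 3 closest to the 3′ end gave 0.16 to 0.41. The rise was called with median scaling, where the falls were not, and with slide row as a block 1 fall and the rise were called. A probe for the gene Dleu2 (A_55_P2120931) fell by 1.02 (limma adjusted p = 0.00983), and another (A_55_P2200029) gave −0.70 (limma adjusted p = 0.129).

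The lincP21 interval, chr17:29194418-29215906, lies beside Cdkn1a, which encodes the cell cycle inhibitor p21; lincP21 is known as a p53-induced RNA. A_30_P01027010 on the reverse strand read 1.65, 0.85 and 1.35 with Foxo3 siRNA against 2.26, 2.28 and 2.46 with nontargeting siRNA, a fall of 1.05 (limma adjusted p = 0.0167). It and 3 adjoining probes above background on all 6 arrays all fell, by 0.97 to 1.15. The 5 probes that carry the name lincP21 passed through the nontargeting arrays alone, missed Foxo3 siRNA replicate 3, and gave −1.72 to −1.002, values that are not read further. Cdkn1a fell by 0.82 to 1.59 over 3 probes, the last on A_55_P1986282. The 4 reverse-strand probes above background on all 6 arrays each kept their call in 8 or 9 of 15 alternatives. The interval's 10 tested reverse-strand probes include those let in by the nontargeting arrays alone, whose calls are not read. Over all 10, 8 were called, but 0 without nontargeting replicate 2, 2 without nontargeting replicate 1 and 5 without nontargeting replicate 3. With slide row as a block or without a filter on dim probes 0 were called, at −1.21 to −0.46 under the block, and with median scaling or quantile normalization 6.

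Other named lincRNAs were not called. TUG1, which is broadly expressed, gave −0.23 to 0.56 over 11 reverse-strand probes and 0.49 and 0.53 over 2 forward-strand ones, of which 1 and 2 were called higher with median scaling. XIST was tested on 2 of 5 probes (−0.08 and 0.37) and its antisense partner TSIX on 5 (−0.52 to 0.56), 0 of which was above background on all 6 arrays. H19, an imprinted RNA, and HOTAIR, of the HoxC cluster, were each tested on 1 of 5 probes, at 0.54 (limma adjusted p = 0.59) and −0.54 (limma adjusted p = 0.145). KCNQ1ot1, an imprinted antisense RNA, gave −0.81 to 0.03 over 5 probes, NRON −0.42 and −0.39 over 2 and BRN1-A −0.37 on 1, while 0 of 5 PINC probes was tested. Of the 5 KCNQ1ot1 probes 1 was above background on all 6 arrays. The tested TSIX and BRN1-A probes and the other KCNQ1ot1 probes were let in by the nontargeting arrays alone.

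Probes of 1 interval and strand mostly moved together. Of 312 strands with at least 3 probes above background on all 6 arrays, all probes were called lower in 26 and higher in 18, some in 83, none in 184, and 1, in the Dleu2 interval, had both directions. The median SD of the log2 fold change within a strand was 0.10, against 0.53 over all members above background on all 6 arrays. Among strands called higher throughout, chr6:127111250-127142925, forward strand, had 5 probes that rose by 1.32 to 1.47, of which 2 were called with slide row as a block (1.37 to 1.63) and 0 within slide row 1 or without a filter on dim probes. Its probe A_30_P01024645 read 1.13, 0.74 and 1.34 with Foxo3 siRNA against −0.22, −0.11 and −0.78. The gene on that side is Ccnd2, which encodes cyclin D2; its probe, 34456 bases away, rose by 0.59 (limma adjusted p = 0.0145). In chr8:40100925-40196350, forward strand, the 3 probes above background on all 6 arrays rose by 1.43 to 1.53, and the Tusc3 probe they overlap rose by 1.47 (limma adjusted p = 0.00159). In chr5:96591892-96606467, forward strand, 3 probes rose by 1.08 to 1.24; up to 50 of their bases are those of a probe for Ifitm2, an interferon-induced membrane protein on another chromosome, which rose by 1.17 (limma adjusted p = 0.00248).

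The number of tested probes per strand reached 10 in 12 intervals. In chr17:26911397-26917047, forward strand, all 10 were above background on all 6 arrays and all 10 fell, by 0.62 to 0.73. The nearest gene probe, for Crebrf, lies 3656 bases from the closest of them on the same strand and fell by 0.86 (limma adjusted p = 0.0218). In chr11:95627874-95640824, forward strand, 7 of the 10 tested probes were above background on all 6 arrays, and these 7 fell, by 0.61 to 0.84. The others passed through 1 group only, and their calls are not read. The Zfp652 probe there, with up to 55 bases in common with a member, fell by 0.63 (limma adjusted p = 0.0166). In chr4:129497990-129515290, forward strand, the 10 probes gave 0.03 to 0.26 and 0 was called.

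Where both strands of an interval were probed, signal was often found on both. With all 3 nontargeting arrays as the measure, 607 of 1067 such intervals had a probe above background on each strand, 181 on the forward strand alone, 161 on the reverse strand alone and 118 on neither. With all 6 arrays the numbers were 221, 210, 232 and 404. A change could be compared between the strands of 614 intervals, and it was unequal in 9 of them (1.47%) at a limma adjusted p under 0.05, tested on the forward minus reverse difference within each array; 88 had an unadjusted p under 0.05. The median size of that difference was 0.31 on the log2 scale. These figures rest on strand means that include probes let in by 1 group only, so the filter can add to them. Its part was not tested. Most of the 614 were let in by the nontargeting arrays, which favours values below 0, so signs are given over the 221 intervals with both strands above background on all 6 arrays. There the mean fold change was below 0 on both strands in 136, above 0 on both in 16 and of opposite sign in 69, with Pearson's r = 0.280 across intervals that share the same 6 arrays and their scaling.

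In chr10:117021051-117038683, 5 forward-strand probes averaged 1.35 while 5 reverse-strand probes averaged −0.58. The forward means were −0.29, −0.40 and −0.59 with Foxo3 siRNA against −1.51, −1.76 and −2.06, and the reverse means −0.94, −1.03 and −1.52 against −0.22, −0.75 and −0.79. The difference was 1.93 (SE 0.194, limma adjusted p = 0.0139), but only 1 of the 5 reverse-strand probes was above background on all 6 arrays. At the same adjusted p, the forward minus reverse difference was 1.90 in chr1:193815525-193825775, −1.57 in chr14:55433382-55452757, −2.29 in chr11:16831925-16851121 and −1.41 in chrX:90997595-91009570, and in chr5:96591892-96606467 the strands gave 1.15 (forward) and −0.35 (reverse). The higher value was thus on the forward strand in the chr1 and chr5 intervals and on the reverse strand in the other 3. Of the 9 unequal intervals, chr1:107866276-107887102 alone had only probes above background on all 6 arrays (difference −2.05, limma adjusted p = 0.0152), and the others hold at least 1 probe let in by 1 group. In the chr11 interval the forward side is 1 such probe, which read −2.51, −2.38 and −3.10 with Foxo3 siRNA, the last under that array's limit of −1.70.

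At chr1:163508244-163586072 both strands had lower means with Foxo3 siRNA. The forward mean was 0.17, −0.03 and −0.05 with Foxo3 siRNA against 0.86, 0.82 and 0.59, and the reverse mean −1.05, −1.77 and −1.50 against 0.78, 0.73 and 0.74, a forward minus reverse difference of 1.46 (limma adjusted p = 0.0206). Of the 12 forward-strand probes at the locus, 5 of this interval and 7 of 3 shorter intervals inside it, 11 were above background on all 6 arrays. These 11 were called lower, at −0.91 to −0.62. The other, A_30_P01021998, passed through the nontargeting arrays alone, and its call is not read. With it, 12 were called in the main fit, but 1 with median scaling and 0 with slide row as a block or without a filter on dim probes. The count was 7 without Foxo3 siRNA replicate 2 or nontargeting replicate 1, 5 without Foxo3 siRNA replicate 3 and 3 without nontargeting replicate 2. Of the 5 reverse-strand probes, the 2 above background on all 6 arrays fell by 2.14 and 2.31; the other 3 missed the third Foxo3 siRNA array and passed through the nontargeting arrays alone. The probes A_30_P01029956 and A_30_P01032551 read the same 60 bases, chr1:163528264-163528323, from opposite strands. The forward one read 0.47, 0.27 and 0.27 against 1.02, 1.27 and 0.90 and fell by 0.73 (limma adjusted p = 0.0136), and the reverse one read −1.46, −1.93 and −1.40 against 0.50, 0.54 and 0.59 and fell by 2.14 (limma adjusted p = 0.00106). Such mirror pairs numbered 100 among the members: in 2 both probes were above background on all 6 arrays, in 27 one of them and in 71 neither.

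**Figure D5:**
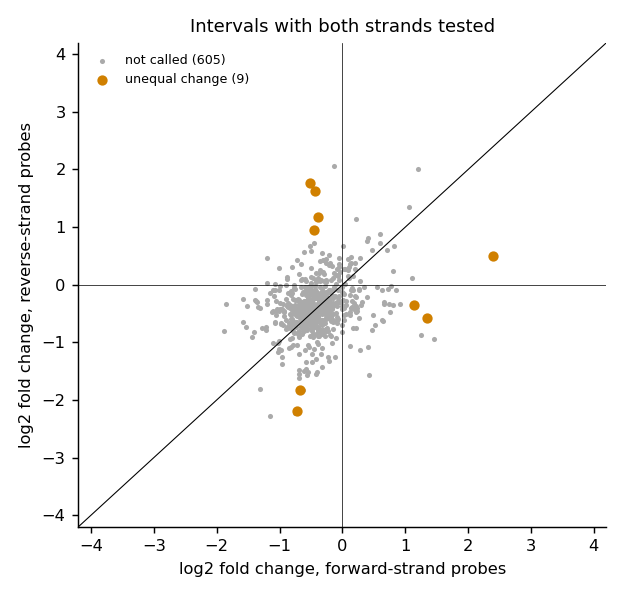
Log2 fold change of forward-strand against reverse-strand probes (means over tested probes) in 614 lincRNA intervals; each point is 1 interval, the diagonal marks equal change, and orange marks the 9 with unequal change. Many points lie below 0 on both axes, a side that the filter favours for probes let in by the nontargeting arrays.

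The unequal pairs were few and not stable to the choice of arrays. The count was 0 without Foxo3 siRNA replicate 2 or without any 1 of the 3 nontargeting replicates, 3 without Foxo3 siRNA replicate 1 and 9 without its replicate 3. It was 1 with slide row as a block. The sign of the difference in the 9 intervals was the same under every alternative in which they could be fitted.

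The fold changes of members and neighbouring gene probes were more alike at short than at long distance. A tested gene probe could be paired with 2643 of the 2671 members above background on all 6 arrays, 916 of them within 10 kb. Across the 252 members that overlap or lie within 1 kb of the nearest gene probe on the same strand, Pearson's r between the fold changes was 0.769, and across the 68 on the opposite strand it was 0.118. At 1 to 10 kb r was 0.504 on the same strand (391 members) and 0.397 on the opposite strand (205 members), at 10 to 100 kb 0.147 and 0.104, and beyond 100 kb 0.003 and 0.031. These describe probes that share arrays, and members of 1 locus share a neighbour. Members with the sequence of a gene probe, such as A_30_P01029746 with that of Mir17hg, were not left out. In the closest class on the same strand, likeness can therefore come from shared sequence, and its part was not tested.

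Calls were compared in the same way, again with members that share a gene probe's sequence. For scale, 17.3% of all probes above background on all 6 arrays were called higher and 12.6% lower. Of all tested probes, from which the neighbours come, 12.2% were called higher and 13.4% lower. Within 1 kb on the same strand 45 members were called higher, with the neighbour also higher for 32 and lower for 0, and 35 were called lower, with the neighbour also lower for 27 and higher for 0. On the opposite strand at that distance 8 were called lower, with 0 neighbours lower and 1 higher. At 1 to 10 kb on the same strand 38 were called higher, with 23 neighbours higher and 0 lower, and 71 lower, with 36 neighbours lower and 8 higher. On the opposite strand at that distance 24 were called higher, with 14 neighbours higher and 1 lower, and 25 lower, with 15 neighbours lower and 2 higher, so the calls there did not single out the same strand. Whether the nearby member and gene probe read 1 transcript was not tested.

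Some members matched RefSeq promoter windows, taken as 250 bases before to 50 after the start of a gene. All 60 bases of 170 members were found in the windows of 105 genes. On the strand opposite to the gene were 90 members, of which 23 (25.6%) were above background on all 6 arrays, and of those 0 were called higher and 5 lower. On the gene's strand were 84, of which 18 (21.4%) were above background on all 6 arrays, and of those 1 was called higher and 5 lower. Over all probes above background on all 6 arrays, 17.3% were called higher and 12.6% lower, and with so few members the shares are not compared. Some members matched on both strands through different genes.

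Among 56 annotated long noncoding RNA genes named as such on the array rather than by coordinates, 46 had a probe and 35 a tested one. Of 51 tested probes 3 were called higher and 3 lower, where 12.2% and 13.4% of all tested probes were, with a median of −0.10 against −0.16 over all of them. Snhg7, a host of small nucleolar RNAs, read 1.56, 0.87 and 1.19 with Foxo3 siRNA against −0.21, −0.21 and −0.14, a rise of 1.39 (limma adjusted p = 0.00457). The other rises were those of Snhg12 (0.88, limma adjusted p = 0.0204) and Snhg6 (0.55, limma adjusted p = 0.0419), both also snoRNA hosts. Besides Mir17hg and Dleu2, Pvt1, the neighbour of Myc, fell by 0.80 (limma adjusted p = 0.0133) on 1 probe and gave −0.24 (limma adjusted p = 0.415) on another. Norad gave −0.35 (limma adjusted p = 0.0518) on 1 probe and −0.11 to 0.14 on its others. For 2610035D17Rik, 1 probe gave −0.06 (limma adjusted p = 0.758), and the other was let in by the nontargeting arrays alone and is not read.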

How the data were processed

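Per the file headers, spot intensity comes from the Agilent software Feature Extraction, version 10.7.3.1, with background subtraction, detrending and surrogate values for dim spots; these intensity values carry no normalization between arrays. The deposited flags of each spot (other columns) give detection and outliers. The authors' deposited table adds a log2 fold change and a p-value per spot, made with limma per the submitters' processing notes.

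Each log2 signal was set relative to its array's 75th percentile, outlier spots were set to missing and spots of 1 probe averaged. The 26970 probes that every array of either group marked well above background were tested with limma 3.58.1 in R 4.3.3 (lmFit, eBayes, two-sided, no covariate), adjusted by Benjamini-Hochberg over all of them. Strand pairs were tested likewise on the forward minus reverse difference, adjusted over 614. Both were tested on simulated data. Gene names came from the array and a RefSeq table of another assembly, of which no coordinates were used (27325 probes matched by accession, 3523 by symbol, 551 by synonym, 24282 unmatched). Promoter windows came from RefSeq, and likeness from blastn 2.17.0. Mouse mm9 positions are those of the array design.

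The members and lists were chosen with earlier results of these data known. Named by rule were the 10 largest rises and falls among called members above background on all arrays with groups apart, the 5 largest bounds each way, 6 strand pairs, the intervals with the most tested probes, the 5 brightest members, the 8 smallest adjusted p with a gene probe within 10 kb, their neighbours, and up to 8 listed noncoding genes. Other names were chosen after values were seen. A repeat-derived or pseudogene origin was not tested. Depth is unknown for arrays; their number, 3 per group, limits precision.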

Additional observations from a re-analysis of the deposited data

How the results depend on the processing

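No alternative turned a called member to the opposite call. The main calls were 246 higher, 928 lower and 9 strand pairs. Counts moved by over 1.5 times, in the order higher, lower and pairs where each did, as follows. Median scaling gave 404 higher and 337 lower, and quantile normalization 521 lower. Background correction by normexp gave 1569 lower and 18 pairs. Without a filter on dim probes there were 36, 27 and 0, and with a filter on all 6 arrays 22 pairs. Slide row as a block, which rests on Foxo3 siRNA replicate 1, gave 88, 172 and 1, and the arrays of row 1 alone, with 1 Foxo3 siRNA sample assumed to vary like the other group, 83, 68 and 0. The authors' deposited table, at its own adjusted p, held 51 higher and 46 lower. Leaving out 1 array gave 105 to 206 higher, 271 to 872 lower and 0 to 9 pairs. Without nontargeting replicates 1, 2 and 3 the lower calls were 355, 271 and 604, and without Foxo3 siRNA replicates 2 and 3 they were 506 and 353. The higher calls without nontargeting replicates 1 and 2 were 158 and 105. The replicate block gave 247, 1164 and 0, and same-numbered samples did not deviate together (correlations 0.164, −0.310 and 0.114). Higher calls were 21.0% of all calls, and 57.1% without a filter and 55.0% in row 1. The Foxo3 probe gave −2.42 with an adjusted p of 0.0616 in limma without a filter, and −2.80 to −2.09 when 1 array was left out. A_30_P01022075 turned from −0.25 to 0.065 with median scaling. The causes were not tested. Signal close to background, above all on the third Foxo3 siRNA array, limits what dim members can show.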
